A study of Mus musculus with 16 samples.

Results

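The STAT genes encode signal transducers and activators of transcription, the factors that carry cytokine signals from the cell surface to the nucleus. The genes Stat2, Stat3, Stat4, Stat5a, Stat5b and Stat6 were examined in hematopoietic stem cells (HSCs), the cells of the bone marrow that give rise to every blood lineage. They were chosen by name, as 6 of the 21851 protein-coding genes annotated in GENCODE M21 on the mouse build mm10. For each gene, peaks of 3 histone marks were collected over the gene and 5 kb on either side, which is called its window, and over its promoters, which reach 1 kb upstream and downstream of each start of a protein-coding transcript. A mark was called present where a listed peak overlapped the promoter or window by at least 1 bp.

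Chromatin immunoprecipitation sequencing (ChIP-seq) was performed for H3K4me3, H3K27me3 and H2AK119ub1 in HSCs of C57BL/6 mice aged 10 weeks (young) or 20 months (aged), to learn how these marks are distributed at each age. No treatment or altered allele was named for either age. At both ages the cells were bone marrow HSCs sorted as lineage-negative (Lin-) cells that were positive for Sca-1, c-kit and CD150. They were negative for the IL-7 receptor (IL-7Rα), CD34, CD48 and Flt3. The labels list 16 libraries, with 2 for each mark and age and 2 of input DNA for each age. The peaks analysed came as 1 pooled list per mark and age, so replicate spread is not known and differences between young and aged HSCs are given as a description, without a test.

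STAT proteins wait in the cytoplasm, are phosphorylated by JAK kinases at an activated cytokine receptor, pair up and move to the nucleus to bind DNA. In HSCs this pathway passes on signals such as thrombopoietin and interferon. H3K4me3 is found at active promoters, whereas H3K27me3 and H2AK119ub1 are placed by the Polycomb repressive complexes, which keep genes silent.

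H3K4me3 was found at most STAT promoters in young HSCs, and the Polycomb marks were found at none of them at either age. At Stat3, Stat4, Stat5a, Stat5b and Stat6, 5 of the 6 promoters overlapped an H3K4me3 peak in young HSCs, beside 33.8% of all protein-coding genes. In aged HSCs this number was 3 of 6 (Stat4, Stat5b and Stat6), beside 23.3% of all genes. Stat3 and Stat5a were thus called in young HSCs alone, Stat2 at neither age, and no STAT promoter in aged HSCs alone. This difference between the ages did not hold with lists of equal length. The young list held 11371 H3K4me3 peaks and the aged list 6723, and with the young list reduced to its 6723 peaks of highest q-value rank, 3 promoters were called in young HSCs (Stat5a, Stat5b and Stat6) and 3 in aged HSCs.

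The sequences printed below differed in their CpG content. CpG-rich promoters are the usual place of H3K4me3 in mammals. The 250 bases before the start of transcription are printed for the main and the second start of Stat5b and for both starts of Stat4, because H3K4me3 was found at unlike starts of these genes, and for Stat6, where a strong young peak lay over them. They are given 5′ to 3′ on the gene's strand, from mm10 (GRCm38.p6), with each CpG in capitals. The last one is the 201 bases centred on the summit of the strongest peak at any STAT gene, in an intron of Stat3.
Stat5b main start, chr11:100850725-100850974, minus strand: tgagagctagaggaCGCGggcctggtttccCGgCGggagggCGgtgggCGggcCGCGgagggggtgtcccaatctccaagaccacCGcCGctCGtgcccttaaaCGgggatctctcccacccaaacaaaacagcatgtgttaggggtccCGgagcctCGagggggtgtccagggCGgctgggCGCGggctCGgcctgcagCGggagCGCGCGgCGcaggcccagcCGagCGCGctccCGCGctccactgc
Stat5b second start, chr11:100822571-100822820, minus strand: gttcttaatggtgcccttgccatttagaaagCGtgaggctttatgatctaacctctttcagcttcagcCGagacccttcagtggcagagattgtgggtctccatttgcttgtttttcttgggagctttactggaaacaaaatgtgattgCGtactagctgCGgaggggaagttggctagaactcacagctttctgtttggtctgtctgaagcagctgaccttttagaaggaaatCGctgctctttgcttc
Stat4 first start, chr1:51986856-51987105, plus strand: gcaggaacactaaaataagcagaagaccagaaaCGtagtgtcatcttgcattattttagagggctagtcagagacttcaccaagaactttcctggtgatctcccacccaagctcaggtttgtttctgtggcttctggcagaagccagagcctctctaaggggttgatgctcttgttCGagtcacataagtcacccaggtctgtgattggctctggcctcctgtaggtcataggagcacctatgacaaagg
Stat4 second start, chr1:52007975-52008224, plus strand: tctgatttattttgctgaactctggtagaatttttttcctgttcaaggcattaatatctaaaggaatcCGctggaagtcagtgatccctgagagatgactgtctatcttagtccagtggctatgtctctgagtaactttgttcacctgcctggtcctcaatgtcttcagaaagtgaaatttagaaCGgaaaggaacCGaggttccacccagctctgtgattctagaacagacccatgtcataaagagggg
Stat6 start, chr10:127642705-127642954, plus strand: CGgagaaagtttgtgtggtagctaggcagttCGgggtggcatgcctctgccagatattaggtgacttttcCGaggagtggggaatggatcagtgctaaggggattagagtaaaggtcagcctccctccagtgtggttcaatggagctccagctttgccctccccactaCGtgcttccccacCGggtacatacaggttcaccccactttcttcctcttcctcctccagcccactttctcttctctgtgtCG
Stat3 intronic summit, chr11:100937937-100938137, minus strand: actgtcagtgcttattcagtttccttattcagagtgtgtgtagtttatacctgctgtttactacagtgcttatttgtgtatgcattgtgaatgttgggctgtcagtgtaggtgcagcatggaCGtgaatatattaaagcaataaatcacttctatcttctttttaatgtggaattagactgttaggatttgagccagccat
The main start of Stat5b was preceded by 28 CpGs in 250 bases and the second start by 5. Both starts of Stat4 were poor in CpG, with 2 and 3. The Stat6 sequence held 6 CpGs, and the 201 bases at the Stat3 summit held 1.

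**Figure D1:**
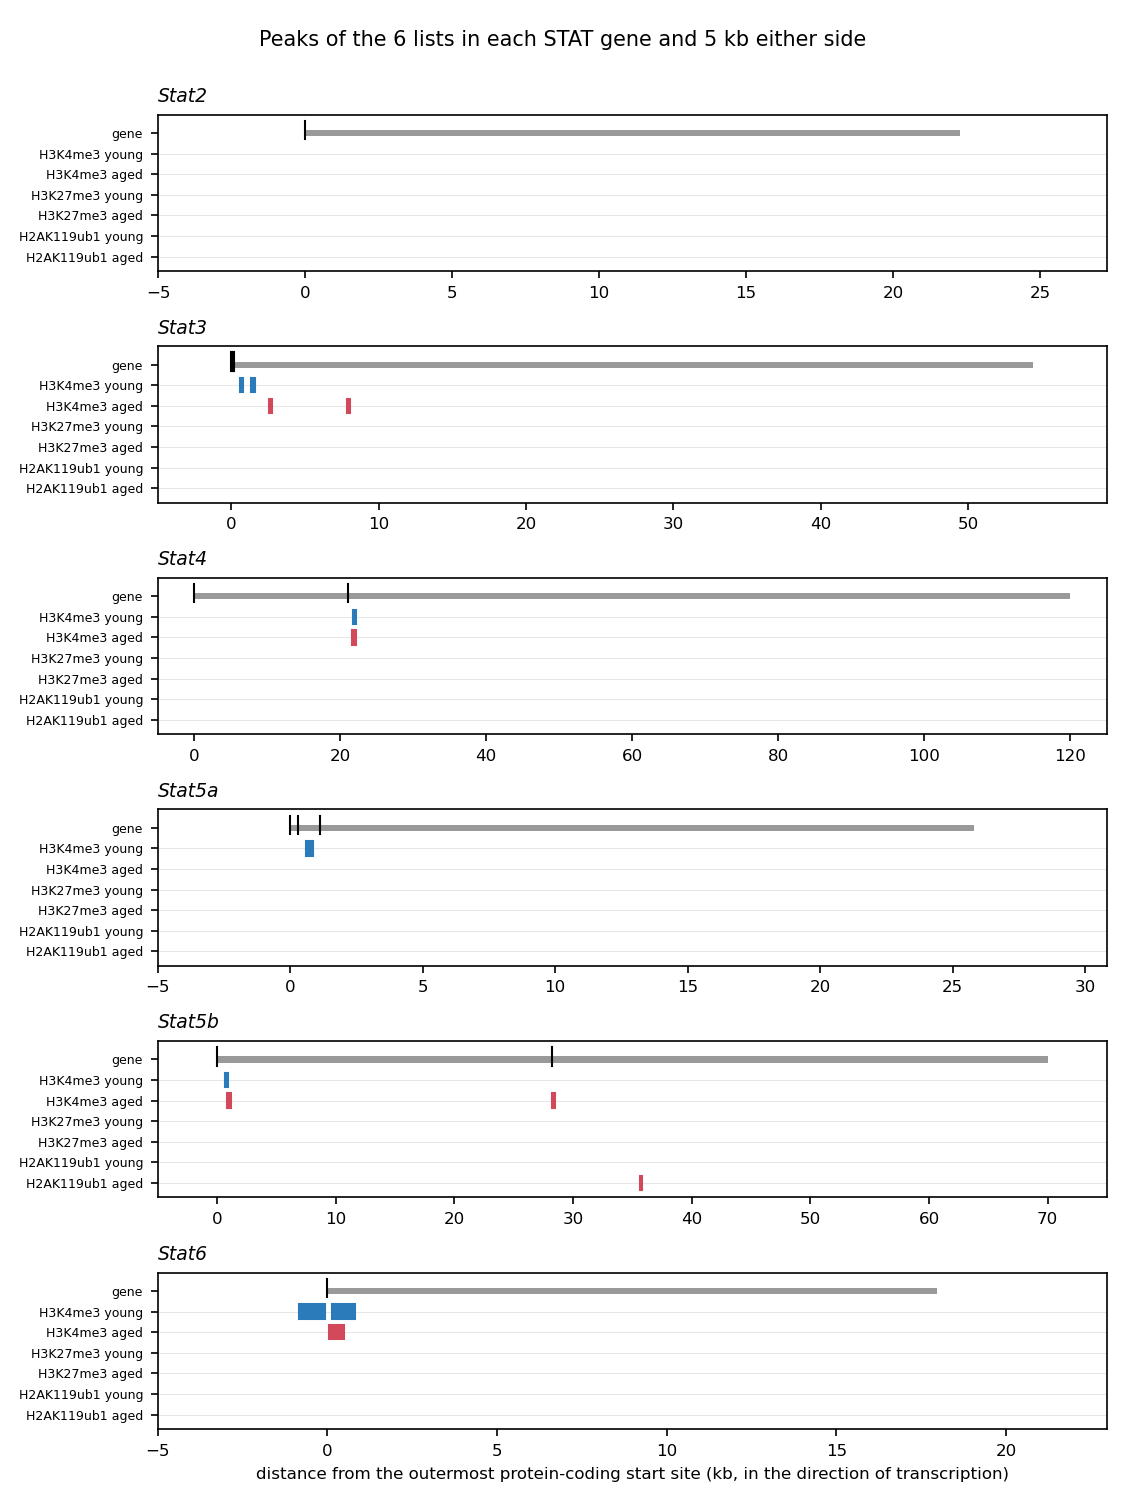
Peaks of the 6 lists along each STAT gene. The horizontal axis is the distance from the outermost protein-coding start site in kb, in the direction of transcription, and differs in length between the genes. Grey bars are genes, black ticks are protein-coding start sites, and blue and red bars are young and aged peaks, drawn slightly wider than they are. Stat2 has no peak, the H3K4me3 peaks of the other genes sit near start sites except for the aged peaks of Stat3, and the single H2AK119ub1 region lies inside Stat5b.

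Within the windows, H3K4me3 was called at 5 of 6 STAT genes in young HSCs, beside 40.6% of all genes, and at 4 of 6 in aged HSCs, beside 29.0% of all genes. The young list placed 7 peaks covering 2914 bp in these windows, and 6 of the 7 reached a promoter. The aged list placed 6 peaks covering 2073 bp, and 4 of the 6 reached a promoter. The order of these peak counts turned, to 5 young and 6 aged peaks, with lists of equal length and with peaks within 1 kb of each other joined. No peak lay in the windows of more than 1 STAT gene, although Stat3, Stat5a and Stat5b are neighbours on chromosome 11. Stat5a and Stat5b, which encode nearly identical proteins, are transcribed away from each other across 8626 bp, and Stat3 and Stat5a overlap by 72 bp at their 3′ ends.

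The strength of each peak is given as its fold enrichment over background, a linear ratio, and as its −log10 q, where q is the p-value adjusted for multiple testing. The number of reads stacked at its summit was recovered from these values, with an exact Poisson 95% interval that covers counting error only. The STAT peaks were of middling strength. In young HSCs their fold enrichment ran from 3.63 to 6.38 with a median of 4.17, and the median of the whole young list was 4.04. In aged HSCs it ran from 2.87 to 4.64 with a median of 3.99, and the median of the whole aged list was 4.20. Their summits held 17 to 29 reads in young and 17 to 22 reads in aged HSCs, over a lowest background in the lists of 3.70 and 3.52 reads. The smallest summit in either list held 13 reads. A promoter without a listed peak may therefore still carry a mark below what this depth could show.

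**Figure D2:**
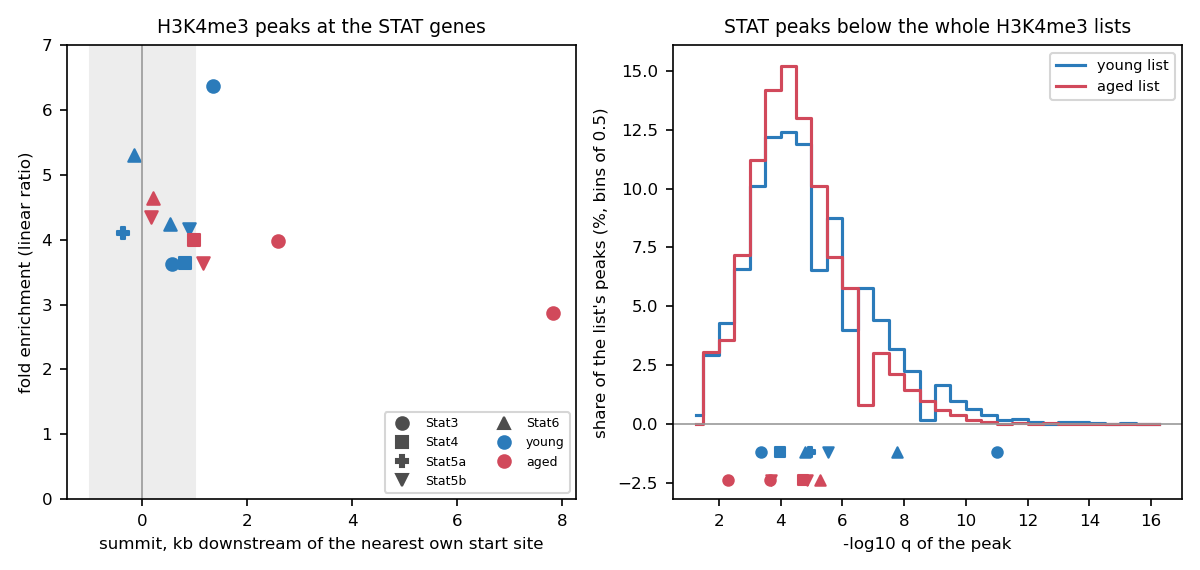
H3K4me3 peaks in the STAT windows, young in blue and aged in red, with 1 symbol for each gene. Left, fold enrichment (linear ratio) against the distance in kb of the summit downstream of the nearest start site of the same gene, with 1 kb either side shaded. Right, the −log10 q of the same peaks as symbols below the distribution of all 11371 young and 6723 aged peaks in bins of 0.5. A single young Stat3 peak, with a fold enrichment of 6.38 and a −log10 q of 11.0, stands to the right of the others.

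Stat5a and Stat5b transmit thrombopoietin, interleukin-3 and erythropoietin signals in blood cells. At Stat5b (chr11:100780731-100850724, minus strand), the young list held 1 peak of 265 bp with a fold enrichment of 4.17, a −log10 q of 5.52 and 23 reads at its summit (interval 14.6 to 34.5). It lay in an intron, with its summit 897 bp downstream of the main start. The aged list held 2 peaks in the gene. The first, of 342 bp, overlapped the young peak by 69 bp, had a fold enrichment of 3.65, a −log10 q of 3.69 and 20 reads (12.2 to 30.9), and its summit was 1156 bp downstream of the main start, so it reached the promoter only by its edge. The read intervals of the young and aged peaks thus overlapped widely. They were taken at different summits and read depth is unknown, so they do not compare the mark between the ages. The other aged peak, of 239 bp, lay at the second annotated start, 28196 bp downstream of the first, on the 5′ untranslated region there, with its summit 170 bp downstream. It had a fold enrichment of 4.35, a −log10 q of 4.85 and 20 reads, and the young list held no peak at that place.

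The 2 starts of Stat5b differed in CpG content. Over 1 kb on either side, the CpG observed over expected, which is the number of CpGs divided by that expected from the C and G bases, was 0.716 at the main start, higher than at 82.1% of all start sites. At the second start it was 0.375, higher than at 41.2% of start sites.

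At Stat5a (chr11:100859351-100885169, plus strand), the young list held 1 peak of 268 bp with a fold enrichment of 4.11, a −log10 q of 4.96 and 21 reads (13.0 to 32.1). It lay inside the gene, in no annotated exon, and its summit was 362 bp upstream of the third annotated start. The aged list held no peak in the Stat5a window, and the nearest aged peak, 9490 bp from the gene, was the one in Stat5b. The young call at Stat5a was kept among the 6723 highest-ranked young peaks, unlike that at Stat3.

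Stat3 answers to interleukin-6, G-CSF and related cytokines. At Stat3 (chr11:100885098-100939540, minus strand), the young and aged lists held 2 peaks each, and no young peak overlapped an aged peak. All 4 lay inside the gene in no annotated exon. The strongest peak of any STAT gene was the young peak at chr11:100937911-100938211, with a fold enrichment of 6.38, a −log10 q of 11.0 and 29 reads (19.4 to 41.6), which ranked 75 of 11371. Its summit was 1343 bp downstream of the nearest start site, so it fell outside the promoter as defined here. The sequence printed for this summit had a GC content of 37.3%, and the start sites of Stat3 had GC contents of 55.2% to 56.4% over 1 kb on either side.

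The other young Stat3 peak, which gave the gene its promoter call, was weaker, with a fold enrichment of 3.63, a −log10 q of 3.36, 17 reads (9.90 to 27.2) and a rank of 8735. The 2 aged peaks lay further into the gene, with summits 2585 and 7824 bp from the nearest start site. The nearer one had a fold enrichment of 3.98 and 17 reads, and the farther one, with a fold enrichment of 2.87, a −log10 q of 2.29 and 20 reads over a background of 6.33, ranked 6417 of 6723. Across the whole lists, 24.0% of young and 21.2% of aged H3K4me3 summits lay more than 1 kb from every protein-coding start site.

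Stat4 conveys interleukin-12 signals and is best known from T cells and natural killer cells, and Stat6 conveys interleukin-4 and interleukin-13 signals. At Stat4 (chr1:51987148-52107189, plus strand), the young and aged lists each held 1 peak, and both lay at the second annotated start, 21095 bp downstream of the first. The young peak of 423 bp had a fold enrichment of 3.65, a −log10 q of 3.97 and 20 reads (12.2 to 30.9). The aged peak of 641 bp had a fold enrichment of 4.00, a −log10 q of 4.71 and 22 reads (13.8 to 33.3), and was wider than 98.0% of the aged list. They shared 414 bp, and their summits were 815 and 994 bp downstream of that start. No peak at either age reached the first start of Stat4.

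At Stat6 (chr10:127642986-127660957, plus strand), the young list held a pair of peaks on the 2 sides of the start. The upstream peak of 765 bp lay outside any gene, had its summit 149 bp before the start, a fold enrichment of 5.31, a −log10 q of 7.77 and 24 reads (15.4 to 35.7), and was wider than 97.9% of the young list. The downstream peak of 670 bp had a fold enrichment of 4.25 and 19 reads (11.4 to 29.7). The aged list held only 1 peak, on the downstream side, of 428 bp with a fold enrichment of 4.64, a −log10 q of 5.27, 20 reads (12.2 to 30.9) and a summit 201 bp after the start. It shared 357 bp with the young downstream peak. The aged list thus held no peak over the 250 bases printed for Stat6. Both ages kept the Stat6 call in each of the processing alternatives.

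Stat2 is a subunit of the interferon-stimulated gene factor, which forms when type I interferon binds its receptor. At Stat2 (chr10:128270559-128292849, plus strand), no peak of any list lay in the gene or within 5 kb. The nearest H3K4me3 peak was 9976 bp away in young and 9930 bp away in aged HSCs. Each lay close to the start of Pan2, 233 and 310 bp from it, a gene named here after its values were seen. The Stat2 start was not poor in CpG. Its CpG observed over expected of 0.58 was higher than at 62.7% of all start sites, whereas Stat4, which carried H3K4me3 at both ages, had 0.258 at the marked start.

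Over all 41438 protein-coding start sites, the median CpG observed over expected was 0.643 at the 13678 with young H3K4me3 and 0.299 at those without. Among the 13 start sites of the STAT genes, only the main start of Stat5b lay above 0.643. The 4 starts of Stat3 had values of 0.503 to 0.544, the 3 starts of Stat5a 0.254 to 0.469, and Stat6 0.432. All other STAT starts, the second start of Stat5b included, lay below that median, whether or not they carried H3K4me3. These values describe sequence, and what part it plays in the marks was not tested.

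**Figure D3:**
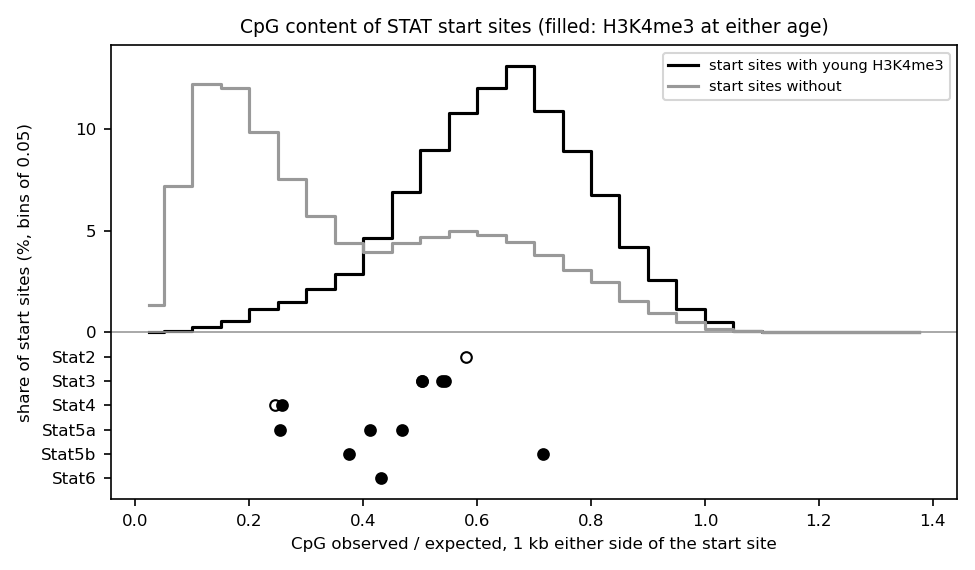
CpG observed over expected within 1 kb of protein-coding start sites. Lines show the share of all start sites in bins of 0.05, in black for those with young H3K4me3 (median 0.643) and in grey for those without (median 0.299). Circles are the start sites of each STAT gene, filled where H3K4me3 was called at either age, and only the main start of Stat5b, at 0.716, lies above the black median.

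Most STAT proteins bind the gamma-activated site, searched here as TTCNNNGAA, which reads the same on both strands, and Stat2 acts through the interferon-stimulated response element, searched as GAAANNGAAA on both strands. Within 1 kb of their start sites, the gamma-activated site was found at 1 start of Stat4, once, and at 1 start of Stat5a, where it occurred 2 times. It was found at 44.6% of all start sites. The interferon-stimulated response element was found once each at Stat2, the second start of Stat4, the third start of Stat5a and the main start of Stat5b, and at 22.6% of all start sites. At Stat2 its first base lay at −300 bp relative to the start. A match of letters is not evidence of binding.

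The Polycomb marks were absent from the lists at nearly every STAT window. H3K27me3 was called at 0 of 6 STAT promoters at both ages, beside 16.0% of all genes in young and 8.24% in aged HSCs. In the windows it was called at 0 of 6 at both ages, beside 27.8% and 16.5% of all genes. H2AK119ub1 was called at 0 of 6 promoters at both ages, beside 1.91% of all genes in young and 14.0% in aged HSCs. In the windows it was called at 0 of 6 in young HSCs, beside 5.99% of all genes, and at 1 of 6 in aged HSCs, beside 29.0% of all genes. At these background shares few calls fall on 6 genes, and nothing particular to the STAT genes is read from these counts.

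The single H2AK119ub1 region lay in an intron of Stat5b at chr11:100814897-100815096 in aged HSCs, 7531 bp downstream of the second start by its middle. It was 200 bp wide, with no narrower region in the list, and had a fold enrichment of 3.27 and a −log10 q of 1.74. It ranked 8467 of 17768 and was lost when the aged list was reduced to the 2593 regions of the young list. The nearest young region was 384108 bp from Stat5b.

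Stat5b was also the STAT gene nearest to H3K27me3 in young HSCs, at 20094 bp, followed by Stat6 at 60316 bp, Stat4 at 72612 bp and Stat2 at 74295 bp. Stat5a followed at 98714 bp and Stat3 at 124461 bp. Each was farther than the median protein-coding gene, at 43810 bp, except Stat5b. In aged HSCs, whose list was shorter (20419 regions against 63142), the distances ran from 106341 bp at Stat6 to 642764 bp at Stat2. Stat6 and Stat5b (108369 bp) were nearer than the median protein-coding gene, at 121900 bp, and the other STAT genes were farther.

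The other genes of the pathway were taken from lists of JAK kinases, SOCS inhibitors, other inhibitors, cytokine receptors and known STAT target genes. Of these 58 genes, 34 (58.6%) carried H3K4me3 at the promoter in young and 21 (36.2%) in aged HSCs, beside 33.8% and 23.3% of all genes. The mark was called at both ages at 16, in young HSCs alone at 18 and in aged HSCs alone at 5, from lists of 11371 young and 6723 aged peaks. Of the JAK kinases, which phosphorylate the STAT proteins, 2 of 4 were called in young HSCs (Jak2 and Jak3) and 1 in aged HSCs (Jak2). The SOCS inhibitors are made in answer to STAT activity and damp the signal. Of these, 7 of 8 were called in young and 3 in aged HSCs, with Cish and Socs4 called at both ages. Of the other inhibitors, which include the PIAS proteins and phosphatases, 5 of 9 were called in young and 4 in aged HSCs. The cytokine receptors were called at 12 of 24 in young and 6 of 24 in aged HSCs. The STAT target genes were called at 8 of 13 in young and 7 in aged HSCs.

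**Figure D4:**
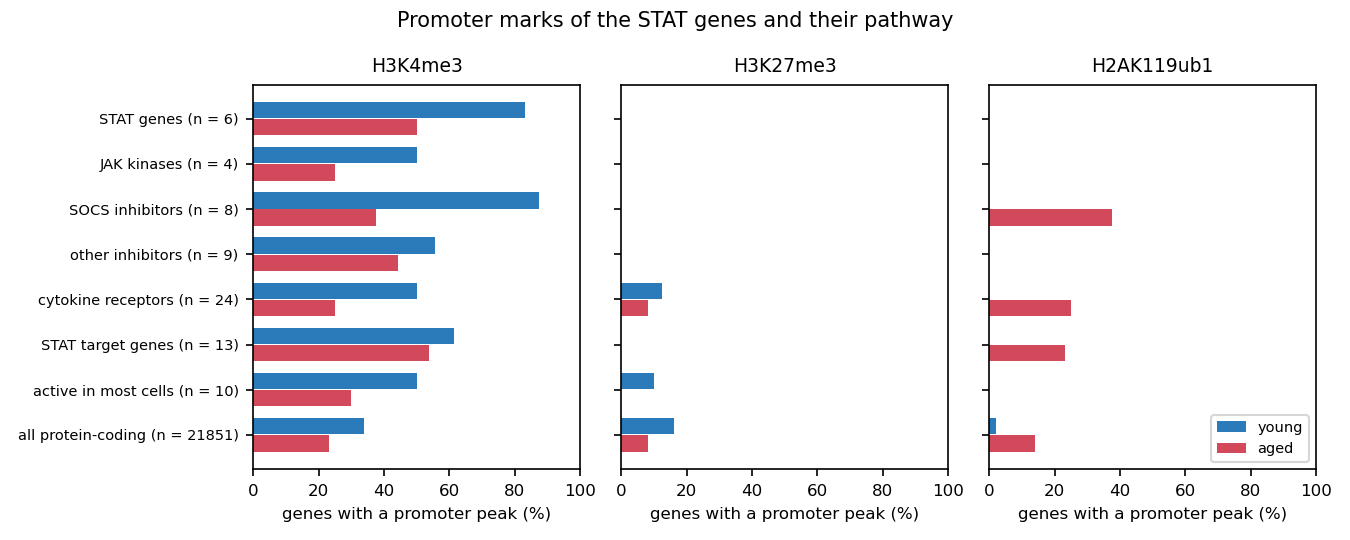
Share of genes with a promoter peak of each mark, in percent, for the STAT genes, the pathway lists, genes active in most cells and all 21851 protein-coding genes, young in blue and aged in red. STAT genes stand at 83.3% in young and 50.0% in aged HSCs for H3K4me3, beside 33.8% and 23.3% of all genes. For both Polycomb marks the STAT genes stand at 0. All genes stand at 16.0% and 8.24% for H3K27me3, and at 1.91% and 14.0% for H2AK119ub1. Several pathway lists show H2AK119ub1 in aged HSCs.

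Polycomb marks were found at some of the STAT pathway genes. H3K27me3 was called at 3 of the 58 in young HSCs and 2 in aged HSCs, all receptor genes, beside 16.0% and 8.24% of all genes. H2AK119ub1 was called at 0 of the 58 in young and 12 (20.7%) in aged HSCs, beside 1.91% and 14.0% of all genes. These 12 were 3 of the 8 SOCS inhibitors (Socs1, Socs3 and Socs5), 6 of the 24 receptors and 3 of the 13 targets (Id1, Myc and Irf1), named after their values were seen because the counts were small. At Socs1, Socs3 and Socs5, H3K4me3 was called in young HSCs alone, as at Irf1, Il4ra and Il10ra. Myc and Lifr had H3K4me3 at both ages, and Id1, Il6ra, Ifngr2 and Il21r at neither. These receptors were also named after their values were seen. Socs2 and Socs6 had H3K4me3 in young HSCs alone without H2AK119ub1. The STAT genes, JAK kinases and other inhibitors had no H2AK119ub1 call at the promoter. The aged H2AK119ub1 list held 17768 regions and the young list 2593, so these counts come from lists of unequal length.

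Taking all 3 marks at both ages together, the STAT promoters showed 3 patterns. Stat4, Stat5b and Stat6, with H3K4me3 at both ages and nothing else, shared this pattern with 14 of the 58 pathway genes, the first of them Jak2, Cish, Socs4, Pias2 and Ptpn2, and it was found at 15.0% of all genes. Stat3 and Stat5a, with young H3K4me3 alone, shared theirs with 12 pathway genes, the first of them Jak3, Socs2, Socs6, Pias1 and Ptpn6, and with 12.9% of all genes. Stat2, with no peak, shared its pattern with 13 pathway genes, the first of them Jak1, Tyk2, Pias4, Ptpn11 and Csf2ra, and with 45.0% of all genes. Likeness here is equality of the calls in all 6 lists.

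Reference genes showed how far a listed or a missing peak can be read. Of 10 genes active in most cells, H3K4me3 was called at 5 in young HSCs and at 3 in aged HSCs. Active promoters can therefore be missing from these lists. H3K27me3 was called at 1 of these active genes in young and 0 in aged HSCs. Of 10 genes known as Polycomb targets, H3K27me3 was called at 10 at both ages and H2AK119ub1 at 6 in young and 10 in aged HSCs. H3K4me3 was called at 4 of these targets in young and 1 in aged HSCs. Among 8 HSC markers, H3K4me3 was called at 5 in young and 6 in aged HSCs, and neither Polycomb mark was called at any. Of the markers by which the cells were sorted, Ly6a (Sca-1) and Slamf1 (CD150) had no H3K4me3 call at the promoter at either age. Kit (c-kit) was called in aged HSCs alone. H3K4me3 was called at 0 of 9 T cell, B cell and myeloid markers at both ages. H3K27me3 was called at Cd3e in young HSCs and at Pax5 at both ages, and H2AK119ub1 at Pax5 in aged HSCs and at Klf1 at both ages. Outside the naming rule given below, Ly6a, Slamf1 and Kit were named as sort markers, and Cd3e, Pax5 and Klf1 for their calls.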

How the data were processed

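HSCs were cross-linked, chromatin was cut with micrococcal nuclease and sonicated, and single reads were aligned by the authors to mm10 with Bowtie2. The submitters' processing notes name MACS2 2.2.6. Each deposited list gives each peak a linear ratio (its fold enrichment over background), and the −log10 of the p-value and of the q-value. Peak names carry a q threshold of 0.05 (H3K4me3) or a broad cutoff of 0.1. Those of the broad lists hold a single library number, so whether both libraries entered is not certain. Read depth per library is unknown. For a broad region the deposited values are averages over the region.

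After removal of peaks on scaffolds, those on the assembled chromosomes were overlapped by at least 1 bp with genes and 41438 start sites of the basic GENCODE M21 set in Python 3.11.15 (numpy 2.4.6, pandas 2.3.3). Overlaps were checked against bedtools 2.31.1 and on simulated data. Summit reads of H3K4me3 peaks were solved from the fold, (reads + 1) / (background + 1), and the Poisson p-value. Sequence was read with pysam 0.24.0 and intervals were computed with scipy 1.17.1. Figures used matplotlib 3.10.9. All 6 genes matched the RefSeq promoter table. RefSeq exons reach into the Stat2 and Stat3 stretches, which are not printed.

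The STAT genes and all gene lists were chosen with earlier results of these data known. All members are named. Other genes are named where they overlap a member or share its calls in all 6 lists, at most 5 a pattern in list order, and exceptions are marked. Alternatives were other promoter and window sizes, all transcripts, a stricter q-value, lists of equal length, larger overlaps, joined peaks and a shorter sequence. The H3K4me3 result of 1 marker list is not reported here.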

Additional observations from a re-analysis of the deposited data

How the results depend on the processing

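Of 161 values recomputed under the alternatives, 139 stayed close to the value given (counts within 1.5 times, age differences in counts by less than 1) and 22 moved, the composition medians by more than 1 SD over the STAT genes. The young count of STAT promoters with H3K4me3 fell to 3 with promoters of 500 bp either side (Stat4 and Stat5b lost), with peaks of −log10 q of at least 4 and with lists of equal length (Stat3 and Stat4 lost in both), and the aged minus young difference, −2 as given, became 0 in all of these. The aged minus young difference in windows with H3K4me3, −1 as given, became 0 with 10 kb either side and with lists of equal length. With 10 kb either side, Stat5a gained an aged call, for which the nearest peak was that in Stat5b. Stat2 gained calls at both ages, for which the nearest peaks were those near Pan2. With 10 kb either side, the young H3K4me3 peaks numbered 12 over 4595 bp. With a −log10 q of at least 4, the aged H3K4me3 peaks numbered 3 over 1308 bp. The H2AK119ub1 region of Stat5b was lost under that threshold and with lists of equal length, giving 0 genes, 0 peaks, 0 bp and a difference of 0. In 300 bases around 1 start site per gene, that with the nearest H3K4me3 peak (for Stat5b the second start), the median CpG observed over expected was 0.59 (0.451 in 2001 bases) and the median GC content 60% (52.5%).

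No paired analysis was possible because the lists were pooled over replicates, 1 for a mark at an age. Differences between young and aged HSCs were thus not set against a spread between libraries. Summits of 17 to 29 reads limit the precision, and a promoter without a listed peak is not shown to lack the mark.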
